A study of Mus musculus with 32 samples.

Results

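Ribosome-bound mRNA of S100a10-expressing cortical cells was compared between single-housed mice that had drunk fluoxetine and behaved normally afterwards (Sh + Flx) and group-housed mice given vehicle (Gh). The libraries were taken by their labels: 8 of the 32 libraries of the series, 4 per group. All mice carried the S100a10 bacTRAP transgene, in which regulatory elements of S100a10 drive ribosomal protein L10a fused to EGFP, and each library pooled cortex of 3 male mice aged over postnatal day 70, with hippocampus and striatum removed. Sh + Flx mice were isolated from weaning on postnatal day 21 for at least 7 weeks and then received fluoxetine at 0.167 g/L in the drinking water for 21 days. Their classification as normal rested on an open-field test of anxiety. Gh mice were littermates kept in groups on vehicle. The groups therefore differed in housing and in drug, and within this comparison the effects of the 2 cannot be told apart. The TRAP libraries of single-housed mice on vehicle (Sh) and of single-housed, fluoxetine-treated mice classified as anxious (Sh + Flx anxious), and the whole-cortex input RNA, were used only to place the differences found.

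In translating ribosome affinity purification (TRAP), polysomes of the cells that carry the tagged ribosome are pulled down from tissue, so that the mRNAs those cells are translating are enriched over the input. S100a10 encodes p11, an adaptor that binds annexin A2 and several serotonin receptors, and its cortical neurons lie mostly in layer 5a and project to the striatum. Fluoxetine blocks the serotonin transporter and needs weeks of treatment to act on behavior. In bulk RNA of this kind, fewer cells of a type and less RNA per cell cannot be told apart.

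Counts assigned to genes ranged from 23589590 to 64788703 per Sh + Flx library and from 9776244 to 40009904 per Gh library. Gh replicates 2 and 3 differed by little more than counting noise (mean chi-square per gene 1.132, against 2.173 to 407 in the other TRAP pairs of one group), so they were summed and Gh was counted as 3 libraries. Sh replicates 1 and 4 gave the 2.173. Within Sh + Flx, replicates 2 and 3 were the pair most alike in TRAP, with a mean chi-square of 23.5, against 35.1 to 102 in the other pairs. In Sh + Flx input it was 5.29 for replicates 1 and 4 and 5.44 for replicates 2 and 3, against 13.5 to 16.1 in the other pairs. The labels do not say whether such libraries share mice. Sh replicates 2 and 3 stood apart from Sh replicates 1 and 4, with S100a10 at 20.6 and 13.01 CPM (counts scaled to library size), against 57.3 and 62.5 CPM in the other Sh libraries. The labels name layer 5a S100a10 neurons as the captured cells. S100a10 was enriched in Gh TRAP over Gh input (log2 fold change 2.60 ± 0.31 SE, adjusted p = 4.33e-08), whereas Etv1, a layer 5 transcription factor, was depleted (log2 fold change -0.91 ± 0.15, adjusted p = 5.91e-06). Deptor, another layer 5 marker, was enriched (log2 fold change 0.37 ± 0.11, adjusted p = 0.00816), and of 11 markers of layer 5 intratelencephalic neurons 3 were enriched and 3 depleted, with a median of 0.03. All 23 markers of meningeal fibroblasts were enriched in that comparison, with a median log2 fold change of 5.24, and 13 of 16 endothelial markers were enriched with a median of 2.39. Of all 17015 genes tested there, 20.3% were enriched and 21.9% depleted.

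How many genes differed between Sh + Flx and Gh depended on which libraries set the spread. With all 4 TRAP groups in edgeR's quasi-likelihood fit, 1 of 16754 genes passed a Benjamini-Hochberg adjusted p of 0.05 (0.00597% of genes tested), with 1029 at an unadjusted p under 0.05 and 84 called by DESeq2. None was called without Gh replicate 1, without Gh replicate 4 or without Gh replicates 2 and 3, and 3 or 5 were called without Sh + Flx replicate 3 or 2. The median biological coefficient of variation in that fit was 0.266. In the fit on the Sh + Flx and Gh libraries alone it was 0.202, and 136 of 16041 genes passed (0.848%), with 108 higher in Sh + Flx (0.673%) and 28 lower (0.175%). All 136 had the same sign in the fit on all TRAP libraries. Leaving the 4 Sh libraries out gave 151 genes (0.915%, with 0.709% higher and 0.206% lower), leaving out Sh replicates 2 and 3 gave 195 (1.15%, with 0.824% higher and 0.324% lower), and leaving out Sh replicate 3 alone gave 28. Below, rose, fell and called refer to the fit on both groups alone, which was planned as an alternative and taken for naming genes after the count of 1 was seen. Its 136 calls became 52 without Gh replicate 1, 56 without Gh replicate 4 and 58 without Gh replicates 2 and 3 together, and 106 to 152 without any one Sh + Flx library. Of the 136 genes, 48 were among the 52, 53 among the 56 and 53 among the 58, and all 136 kept their sign in each of these 3 fits. All these fits compare the same Sh + Flx and Gh libraries or part of them. In 107 of the 108 higher genes and all 28 lower genes the groups did not overlap. The signs could therefore hardly change, and keeping them is not further evidence. The median fold difference of the 108 higher genes was 1.83, and 38 of them exceeded 2-fold. Of the 28 lower genes, 6 fell by more than 2-fold.

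**Figure D1:**
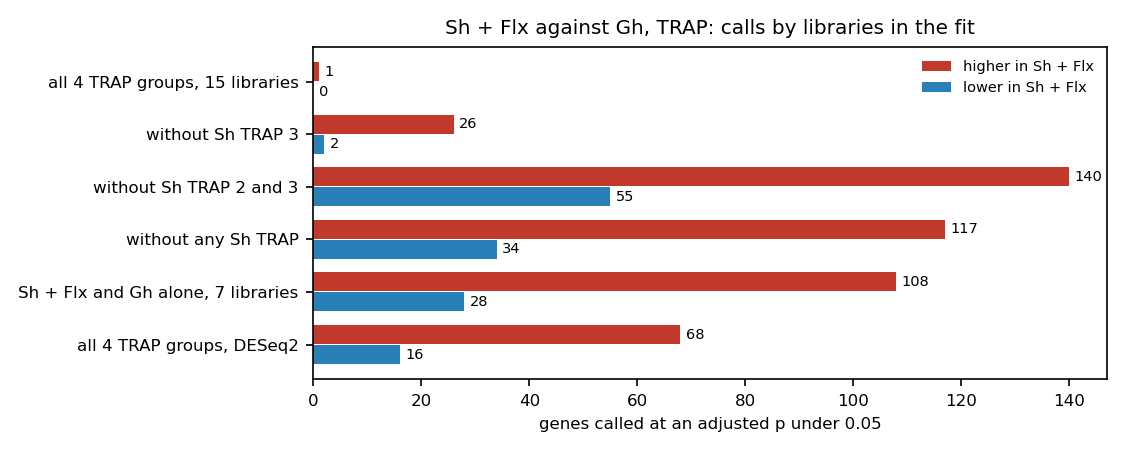
Number of genes called between Sh + Flx and Gh TRAP libraries at an adjusted p under 0.05 (x axis) by the libraries in the edgeR fit, with DESeq2 on all libraries in the last pair of bars (y axis), and genes higher in Sh + Flx in red and lower in blue. The count was 1 with all 15 libraries, and 108 higher and 28 lower with the 7 libraries of both groups.

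Ecm1, Cstb, S100a6 and Nnat were among the genes that rose with the smallest p. Ecm1, an extracellular matrix glycoprotein (chr3:95734147-95739876, mm10), was the 1 gene called in both fits. It was at 21.7, 21.7, 24.4 and 24.4 CPM in the Sh + Flx libraries, against 4.44, 5.69 and 5.31 CPM in the Gh libraries. The groups were far apart and tight, with a log2 fold change of 2.15 (adjusted p = 1.94e-05 on both groups alone and 0.00879 with all TRAP libraries, where the call was lost without Gh replicate 1, 4 or 2 and 3). Cstb, cystatin B, an inhibitor of lysosomal cathepsins (chr10:78425670-78427622), had 217, 154, 164 and 176 CPM in Sh + Flx and 50.5, 51.8 and 59.2 CPM in Gh. Every Sh + Flx library exceeded the highest Gh library more than 2-fold, and the log2 fold change was 1.73 ± 0.14 (adjusted p = 2.56e-06, and 0.0829 with all TRAP libraries). Other members of the cystatin and cathepsin list did not pass: Cstb was the single call among 20 tested, beside 0.673% of all genes that rose. The list's median log2 fold change was 0.23, beside 0.00 over all genes.

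S100a6, calcyclin, a calcium-binding relative of p11 (chr3:90612894-90614414), was at 80.3, 83.8, 88.4 and 59.3 CPM in Sh + Flx against 30.5, 33.4 and 28.1 CPM in Gh. The lowest Sh + Flx library lay well above the highest Gh library (log2 fold change 1.35 ± 0.16, adjusted p = 0.000247). Nnat, neuronatin, a small imprinted membrane proteolipid of the endoplasmic reticulum (chr2:157560078-157562525), had 504, 527, 609 and 501 CPM against 230, 245 and 264 CPM in Gh, with no overlap and a log2 fold change of 1.13 ± 0.11 (adjusted p = 1.94e-05). In the fit on all TRAP libraries the adjusted p was 0.455 for S100a6 and 0.641 for Nnat.

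Tpm4, Sdpr, Emd and Tagln2 rose as well. Tpm4, a tropomyosin that stabilises actin filaments, reached 757, 808, 832 and 831 CPM in Sh + Flx against 472, 444 and 476 CPM in Gh. The Sh + Flx libraries were tight and far from Gh, and the log2 fold change was 0.81 ± 0.09 (adjusted p = 0.000284). Sdpr (also named Cavin2), which shapes caveolae, split the Sh + Flx group, with 161, 293, 272 and 161 CPM against 82.9, 77.0 and 77.9 CPM in Gh. Replicates 2 and 3 were the high ones, and even replicates 1 and 4 were clear of Gh (log2 fold change 1.49 ± 0.19, adjusted p = 0.000502). Emd, emerin of the inner nuclear membrane, showed the reverse split, at 140, 84.5, 79.1 and 131 CPM against 41.7, 42.7 and 48.6 CPM in Gh (log2 fold change 1.30 ± 0.18, adjusted p = 0.00127). The actin-binding Tagln2 rose by a log2 fold change of 0.94 (adjusted p = 0.001).

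The rest of the 20 leading genes that rose were Spp1 (osteopontin, log2 fold change 0.92), Serpinf1 (the secreted factor PEDF, 1.10), Thbd (thrombomodulin, an anticoagulant receptor, 0.87), Ext2 (a heparan sulfate polymerase, 1.90), Slc25a17 (a peroxisomal carrier, 0.97), Isyna1 (the enzyme that makes inositol phosphate from glucose phosphate, 0.96), Tfcp2l1 (a grainyhead-family transcription factor, 0.82), Eprs (glutamyl-prolyl-tRNA synthetase, 0.75), Fam46a (1.12), and Stra6, Aox3 and Nptx2, described below. Adjusted p ran from 0.000482 for Spp1 to 0.00312 for Eprs among those not described below. Ext2 varied most, from 33.9 to 100.2 CPM in Sh + Flx against 13.7 to 19.6 CPM in Gh. Each of the 20 was called in all 16 settings of the fit on both groups alone, the 9 that left out libraries included.

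**Figure D2:**
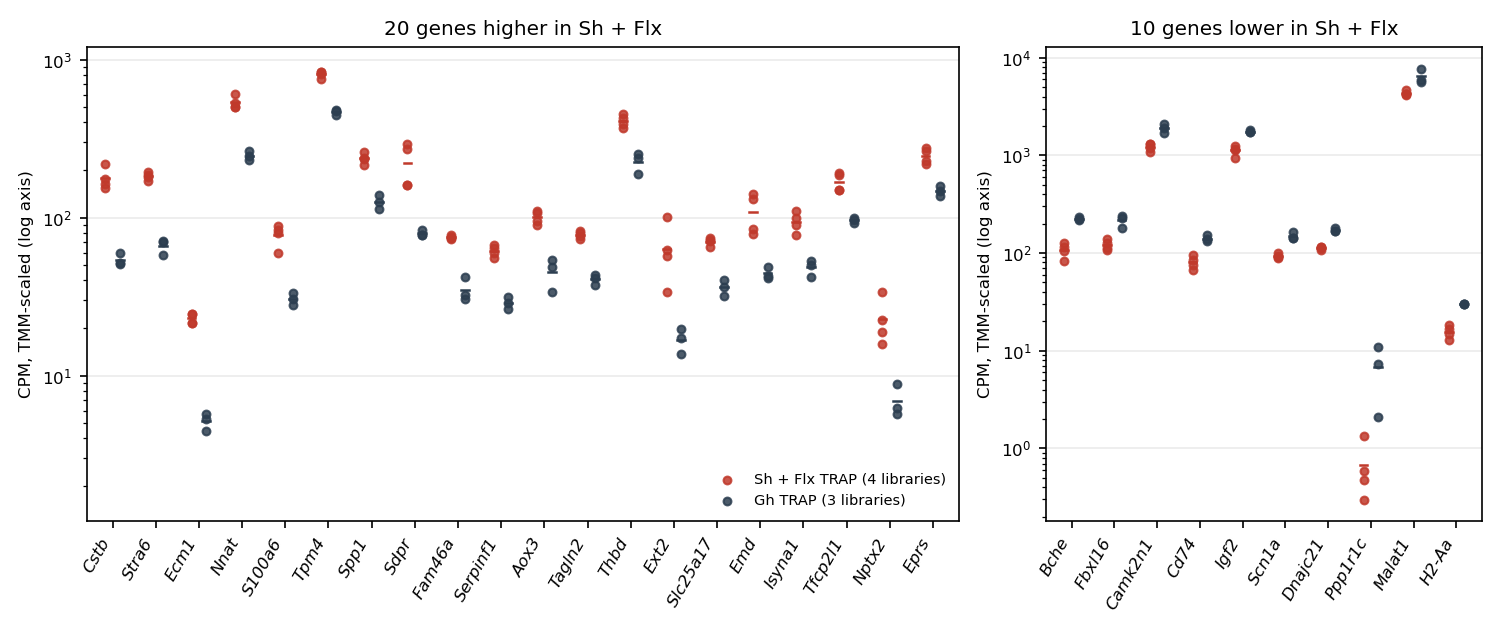
TMM-scaled CPM (log axis) of the 20 leading genes that rose (left panel) and the 10 leading genes that fell (right panel), with a point per library and a bar at each group mean, Sh + Flx in red and Gh in dark blue. Genes were chosen among calls whose groups did not overlap, and Ecm1 stands at 21.7 to 24.4 CPM in Sh + Flx against 4.44 to 5.69 CPM in Gh.

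Genes that take up, bind and oxidise vitamin A formed the fullest group. Retinol circulates on the carrier RBP4, enters cells through the receptor STRA6 and is oxidised by RDH10 to retinal and by ALDH1A2 to retinoic acid, which acts on nuclear receptors such as RARB. AOX3 is an aldehyde oxidase that also accepts retinal, and CYP26B1 degrades retinoic acid. Of 19 genes on the retinoid list that were tested, 7 rose and none fell, beside 0.673% and 0.175% of all genes. The list's median log2 fold change was 0.29, beside 0.00 over all genes. As with the other lists, its members were chosen with earlier results of these data known. In the fit on all TRAP libraries none of 20 passed in edgeR and DESeq2 called 4. There, 5 were higher with an edgeR p under 0.05 before adjustment, beside 1029 of all 16754 genes in either direction.

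The receptor Stra6 (chr9:58063793-58154004) had 182, 185, 193 and 170 CPM in Sh + Flx and 70.8, 57.8 and 69.8 CPM in Gh. Even the lowest Sh + Flx library had more than 2-fold the highest Gh library, with a log2 fold change of 1.48 ± 0.12 (adjusted p = 2.56e-06, and 0.52 with all TRAP libraries). The carrier Rbp4 (chr19:38116620-38125321) was at 23.3, 28.6, 25.2 and 22.4 CPM against 9.90, 8.41 and 12.97 CPM in Gh. Its groups did not overlap (log2 fold change 1.26 ± 0.20, adjusted p = 0.00415).

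Among the enzymes, Aox3 rose to 95.4, 110, 107 and 89.4 CPM, against 33.9, 53.8 and 48.7 CPM in Gh (log2 fold change 1.14 ± 0.15, adjusted p = 0.00092). The retinal dehydrogenase Aldh1a2 was the most abundant of those described here, at 619, 827, 868 and 698 CPM against 538, 477 and 528 CPM in Gh. Its groups came close without overlapping (log2 fold change 0.56, adjusted p = 0.0284). Rdh10 was scarcer, at 17.4, 15.3, 18.9 and 17.7 CPM against 10.6, 8.14 and 8.44 CPM in Gh (log2 fold change 0.96, adjusted p = 0.0324). Cyp26b1 was lower in every Sh + Flx library, with 23.8, 41.3, 40.8 and 19.5 CPM against 48.9, 55.4 and 47.9 CPM in Gh, but did not pass (log2 fold change -0.69, adjusted p = 0.193). It was called lower when replicate number entered the fit as a block (adjusted p = 0.0331, and 0.00938 with numbers 1 and 4 against 2 and 3).

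Rarb, the retinoic acid receptor beta, had 39.5, 44.3, 47.1 and 33.1 CPM in Sh + Flx, against 20.6, 24.7 and 19.6 CPM in Gh. All 4 Sh + Flx libraries were above the 3 Gh libraries (log2 fold change 0.93 ± 0.17, adjusted p = 0.00968). Its promoter is shown because it holds the direct repeat to which retinoic acid receptors are known to bind. The window runs from 250 bases before to 50 after the RefSeq start (GRCm38.p6, chr14:16575427-16575726, minus strand), and the capitals mark a match, starting 53 bases upstream, to the retinoic acid response element of the DR5 type, a direct repeat of the receptor's site with a spacer of 5 bases, searched on both strands.
Rarb promoter: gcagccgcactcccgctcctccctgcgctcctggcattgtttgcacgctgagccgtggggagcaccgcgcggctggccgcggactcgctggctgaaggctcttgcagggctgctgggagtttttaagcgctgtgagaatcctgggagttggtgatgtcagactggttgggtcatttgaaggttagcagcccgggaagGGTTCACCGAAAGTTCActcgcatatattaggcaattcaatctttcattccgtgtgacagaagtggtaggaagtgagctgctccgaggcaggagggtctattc
Such a match was found in 32 of 32851 promoters of this length (0.0974%). A promoter was on record for 82 of the 108 genes that rose, and 1 of these genes had a match. None did of the 22 genes with a promoter among the 28 that fell. These counts are by gene, over all its starts on record, and the percentage is by promoter, so the 2 are not directly comparable. A match describes the letters only.

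Without Gh replicate 1, 3 of the retinoid genes were called, and 4 without Gh replicate 4 or without Gh replicates 2 and 3. Leaving out 1 Sh + Flx library left 5 or 6. Stra6, Rbp4 and Aox3 passed in each of these fits. Rarb, Aldh1a2 and Rdh10 did not, with adjusted p up to 0.0927 for Rarb, 0.186 for Aldh1a2 and 0.182 for Rdh10. In Gh TRAP over Gh input, 13 of 20 retinoid genes were enriched (20.3% of all genes), with log2 fold changes of 5.495 for Aldh1a2, 5.27 for Stra6 and 4.60 for Aox3, but 0.70 for Rbp4, 0.55 for Rarb and 0.10 for Rdh10.

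**Figure D3:**
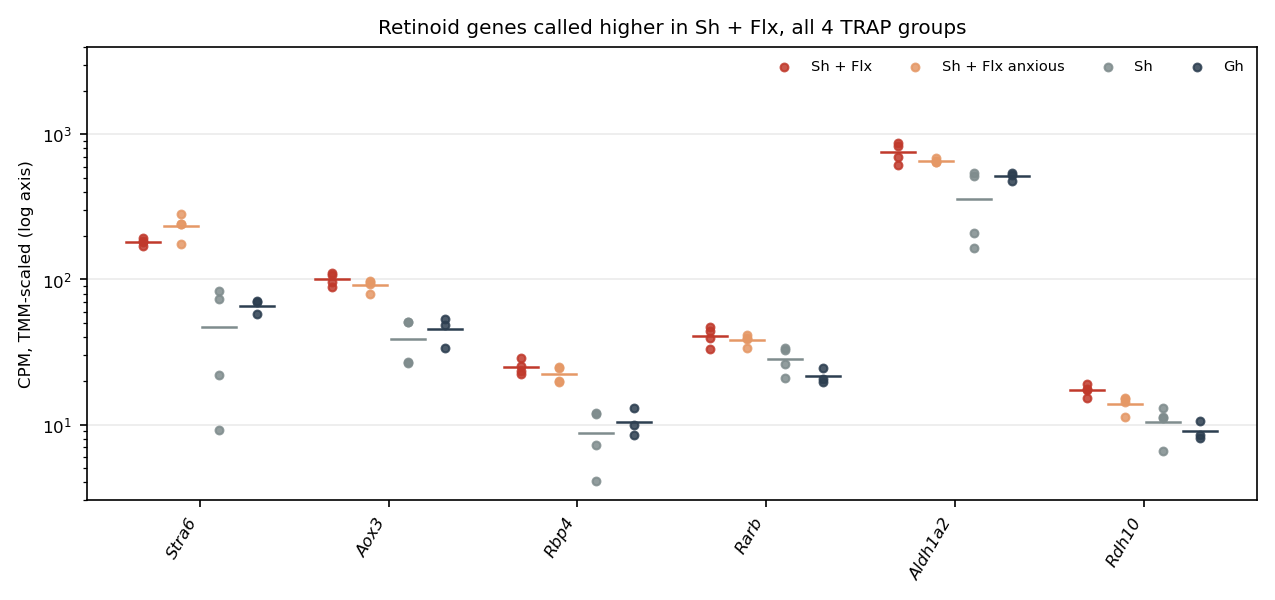
TMM-scaled CPM (log axis) of 6 retinoid genes that rose, with a point per TRAP library and a bar at each group mean, for Sh + Flx, Sh + Flx anxious, Sh and Gh. Stra6 lies at 170 to 193 CPM in Sh + Flx against 57.8 to 70.8 CPM in Gh, and Sh replicates 2 and 3 are the low grey points of Stra6.

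Among genes induced by neuronal activity, the Sh + Flx libraries differed among themselves. Immediate-early transcription factors are switched on within minutes of calcium or cAMP signals, and the secreted and signaling genes they control follow later. Of 26 immediate-early factors tested, 3 rose and none fell (median log2 fold change 0.35), and of 43 effectors 7 rose and none fell (median 0.17). Over all genes 0.673% rose and 0.175% fell, and the median was 0.00. Nr4a3, an orphan nuclear receptor (chr4:48045078-48086447), had 68.3, 16.6, 25.3 and 85.3 CPM in Sh + Flx against 6.56, 6.62 and 10.4 CPM in Gh. Replicates 1 and 4 were several-fold above replicates 2 and 3, which still cleared Gh (log2 fold change 2.62 ± 0.43, adjusted p = 0.00415). Maff, a small Maf factor, had 37.2, 9.76, 8.37 and 29.6 CPM against 5.45, 2.43 and 4.75 CPM in Gh, with the same split (log2 fold change 2.38 ± 0.46, adjusted p = 0.0163). Fosb had 76.2, 13.2, 14.1 and 99.0 CPM against 11.3, 9.39 and 7.95 CPM in Gh, so that replicates 2 and 3 barely exceeded Gh (log2 fold change 2.43 ± 0.54, adjusted p = 0.0395).

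Other immediate-early genes did not pass. Nr4a2 was at 432, 89.3, 67.2 and 560.0 CPM in Sh + Flx and 86.6, 60.5 and 65.5 CPM in Gh, with replicate 3 inside the Gh range (adjusted p = 0.0749). Fos, at 15.1, 5.36, 5.99 and 9.49 CPM against 11.6, 9.62 and 8.52 CPM in Gh, and Arc, at 29.6, 36.03, 45.3 and 34.5 CPM against 31.2, 51.5 and 43.8 CPM in Gh, overlapped between the groups (adjusted p = 0.94 and 0.745). Egr1 was lower in each Sh + Flx library, at 560.1, 471, 415 and 571 CPM against 783, 614 and 739 CPM in Gh, without passing (log2 fold change -0.49, adjusted p = 0.0688), although it was called lower in 7 of 16 settings of the fit on both groups alone, among them DESeq2 (adjusted p = 0.00843) and the fit without Sh + Flx replicate 4 (0.0359). In the fit on all TRAP libraries none of the 26 factors and none of 44 effectors passed in edgeR, while DESeq2 called 2 and 6. There, 7 and 11 were higher with an edgeR p under 0.05 before adjustment, beside 1029 of all 16754 genes in either direction. Over the list of immediate-early factors, the median log2 fold change was 0.65 with replicates 1 and 4 of both groups alone and -0.10 with replicates 2 and 3 alone, beside 0.01 and -0.01 over all genes. Without Gh replicate 1, or without Gh replicates 2 and 3, none of the 3 was called, and 1 was called without Gh replicate 4. Without Sh + Flx replicate 1 or 4 there were 2 higher, and 6 or 7 without replicate 3 or 2.

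The promoters of Nr4a3 and Maff are shown for their cAMP response elements, the sites that bind CREB. Shown with capitals are the core TGACG or its complement CGTCA in Nr4a3 (chr4:48045055-48045354, plus strand), 231, 213, 205 and 147 bases upstream of the start, and the full palindrome TGACGTCA in Maff (chr15:79347270-79347569, plus strand, 1 of 3 starts on record), 29 bases upstream. Both are RefSeq windows of GRCm38.p6 of the same 300 bases around the start, searched on both strands.
Nr4a3 promoter: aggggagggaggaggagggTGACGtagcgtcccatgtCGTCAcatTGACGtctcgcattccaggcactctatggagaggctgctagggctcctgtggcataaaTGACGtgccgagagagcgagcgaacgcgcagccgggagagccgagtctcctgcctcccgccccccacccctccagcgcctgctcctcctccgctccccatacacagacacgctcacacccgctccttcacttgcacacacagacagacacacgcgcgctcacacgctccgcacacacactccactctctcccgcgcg
Maff promoter: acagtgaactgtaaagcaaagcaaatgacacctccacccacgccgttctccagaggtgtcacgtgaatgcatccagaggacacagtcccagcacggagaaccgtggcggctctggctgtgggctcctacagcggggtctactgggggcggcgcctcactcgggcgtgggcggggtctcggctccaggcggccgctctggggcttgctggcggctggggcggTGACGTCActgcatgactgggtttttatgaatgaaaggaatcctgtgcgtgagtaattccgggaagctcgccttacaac
The full element was in 1.79% of 32851 promoters and the core, which the full element contains, in 20.8%. Of the 82 genes that rose and had a promoter on record, 2 held the full element and 22 the core at any of their starts. Of the 22 such genes that fell, 3 held the full element and 6 the core. These counts are by gene and the percentages by promoter, so they are not directly comparable. The 3 immediate-early factors that rose each had at least 1 core.

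Of the effectors, Nptx2, neuronal pentraxin 2, which clusters AMPA receptors (chr5:144545887-144557478), was at 22.5, 18.8, 15.8 and 34.0 CPM in Sh + Flx and 8.79, 5.75 and 6.24 CPM in Gh. All Sh + Flx libraries were above Gh (log2 fold change 1.75 ± 0.27, adjusted p = 0.00289). Inhba, the activin beta A subunit, had 33.1, 27.9, 31.4 and 35.6 CPM against 19.8, 15.2 and 16.1 CPM in Gh (log2 fold change 0.93 ± 0.17, adjusted p = 0.0112). Rgs2, which turns off Gq signaling downstream of serotonin 2A receptors, had 294, 160, 169 and 328 CPM against 120, 96.3 and 128 CPM in Gh, with replicates 1 and 4 highest (log2 fold change 1.06 ± 0.21, adjusted p = 0.0178). The cell-cycle inhibitor Cdkn1a (log2 fold change 0.79), the secreted protease Adamts1 (1.25), Fam46a and the GTPase Gem also rose. Gem overlapped between the groups, at 47.9, 1.87, 4.403 and 35.8 CPM against 0.505, 3.28 and 0.710 CPM in Gh (adjusted p = 0.0487). Without Gh replicate 4, or without Gh replicates 2 and 3, 2 of the 7 were called, 3 without Gh replicate 1 and 4 without Sh + Flx replicate 1. In those fits Nptx2 and Fam46a passed. The adjusted p reached 0.0967 for Inhba, 0.154 for Rgs2, 0.145 for Cdkn1a, 0.14 for Adamts1 and 0.25 for Gem.

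**Figure D4:**
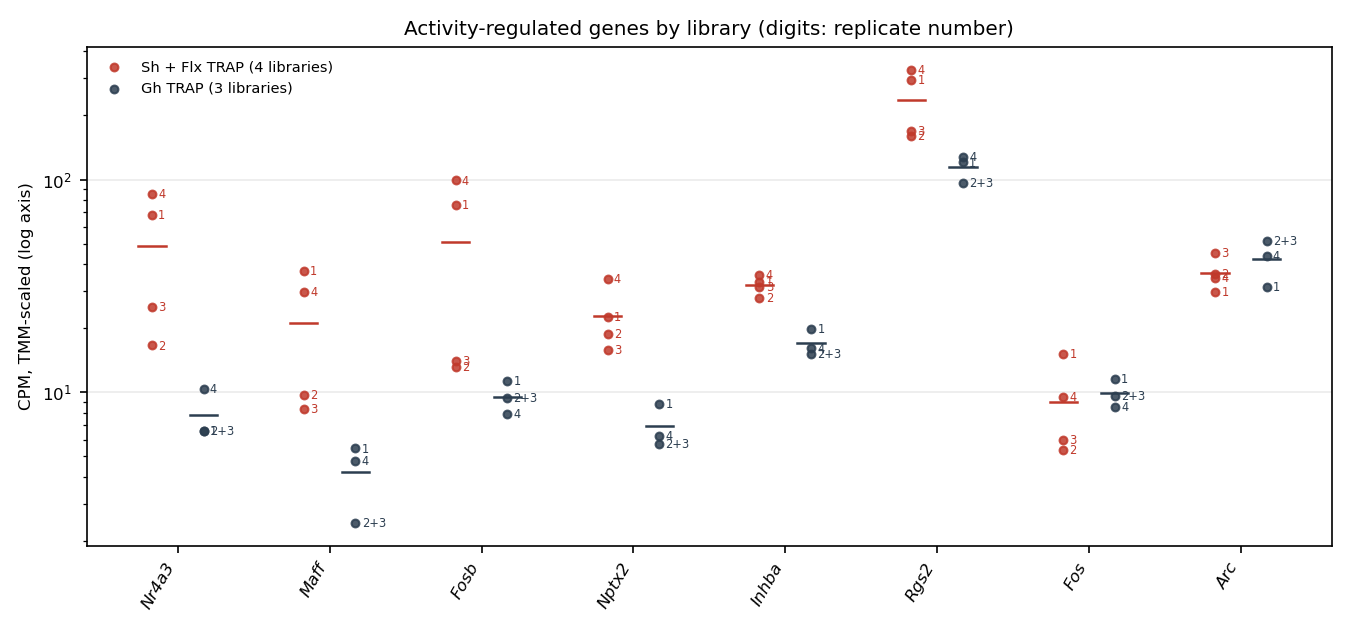
TMM-scaled CPM (log axis) of activity-regulated genes in Sh + Flx (red) and Gh (dark blue) TRAP libraries, each point marked with its replicate number and a bar at each group mean. In Nr4a3, Maff and Fosb, Sh + Flx replicates 1 and 4 lie far above replicates 2 and 3, whereas Fos and Arc overlap between the groups.

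Single genes of sterol synthesis and of protein folding rose, counts to be read beside the 0.673% of all genes that did. On the sterol list 25 of 28 log2 fold changes were positive in the fit on all TRAP libraries, and 3 genes rose: Insig2, which retains the sterol sensor in the endoplasmic reticulum (log2 fold change 0.60, adjusted p = 0.0177), Mvk, mevalonate kinase (1.19, adjusted p = 0.0324), and Idi1, an isomerase of isoprene units (0.63, adjusted p = 0.0465). None of the 3 was called without Gh replicate 1, without Gh replicate 4 or without Gh replicates 2 and 3, and 1 without Sh + Flx replicate 1 or 2. Of 24 endoplasmic reticulum chaperones and regulators, Wfs1, a calcium-handling membrane protein of the endoplasmic reticulum (0.98, adjusted p = 0.00485), and Xbp1, a transcription factor of the unfolded protein response (0.54, adjusted p = 0.0395), rose. Of 16 heat shock genes only Dnaja1, an Hsp70 co-chaperone, was called (0.43, adjusted p = 0.0373), while 6 of the 16 had Sh + Flx libraries that did not overlap Gh and were higher, a pattern found in 5.38% of all genes. Xbp1 and Dnaja1 were each called in 3 of 9 fits that left out libraries, and Wfs1 in 7, losing its call without Gh replicate 1 (adjusted p = 0.0657) or 4 (0.0536). Penk, the enkephalin precursor, was the 1 of 19 neuropeptide genes called, at 206, 132, 141 and 237 CPM against 98.5, 68.1 and 104 CPM in Gh. Both groups were spread but did not overlap (log2 fold change 0.9997 ± 0.19, adjusted p = 0.0145), and the call was lost without Gh replicate 1 (adjusted p = 0.0739) or without Gh replicates 2 and 3 (0.133).

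Calcium and cAMP signaling gave few calls, to be read beside the 0.673% of all genes that rose and the 0.175% that fell. Hpcal4, a neuronal calcium sensor of the visinin family, rose to 1417, 917, 941 and 1490.0 CPM, against 657, 598 and 752 CPM in Gh (log2 fold change 0.84, adjusted p = 0.0114). Replicates 1 and 4 were again the high pair, and all 4 were above Gh. It and Camk2n1, which fell, were the calls among 28 genes of calmodulin and its kinases, and the call was lost without Gh replicate 1 (adjusted p = 0.0936) or without Gh replicates 2 and 3 (0.0983). Of 33 cAMP signaling genes 2 rose. Akap12, a scaffold of protein kinase A, had 449, 535, 556 and 503 CPM against 319, 293 and 358 CPM in Gh (log2 fold change 0.67 ± 0.11, adjusted p = 0.00436), and was called in all 16 settings. Pde1a, a calmodulin-dependent phosphodiesterase, rose by a log2 fold change of 0.45 (adjusted p = 0.0232), a call kept in 3 of 9 fits that left out libraries.

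The genes that fell included neuronal signaling genes, nuclear RNAs and antigen-presentation genes. Camk2n1, a peptide inhibitor of CaM kinase II (chr4:138455148-138460126), had 1183, 1078, 1315 and 1298 CPM in Sh + Flx against 2076, 1687 and 1903 CPM in Gh. It was the most abundant protein-coding gene among the 10 leading genes that fell, and no library crossed over (log2 fold change -0.63 ± 0.10, adjusted p = 0.00415). Scn1a, a voltage-gated sodium channel subunit (chr2:66270781-66440837), was at 93.6, 91.2, 88.9 and 101 CPM against 143, 164 and 142 CPM in Gh. Both groups were tight (log2 fold change -0.67 ± 0.11, adjusted p = 0.00496). It was the 1 call among 23 calcium and sodium channel genes, beside 0.175% of all genes that fell. Of the 23, 20 had negative log2 fold changes in the fit on all TRAP libraries.

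Bche, butyrylcholinesterase, fell most firmly, to 82.3, 125, 116 and 104 CPM in Sh + Flx against 236, 221 and 216 CPM in Gh (log2 fold change -1.06 ± 0.13, adjusted p = 0.000464). Igf2, an imprinted growth factor, was at 932, 1161, 1261 and 1139 CPM against 1810, 1721 and 1724 CPM in Gh (log2 fold change -0.63 ± 0.10, adjusted p = 0.00415). Cd74, the invariant chain of MHC class II, had 66.3, 75.5, 95.1 and 84.5 CPM against 132, 138 and 152 CPM in Gh, and H2-Aa, a class II alpha chain, had 14.8, 16.7, 18.2 and 13.02 CPM against 30.0, 29.8 and 29.8 CPM in Gh. Neither overlapped (log2 fold changes -0.80 and -0.92, adjusted p = 0.00415 and 0.012), and H2-Aa lost its call when Gh replicate 1, Gh replicate 4 or Gh replicates 2 and 3 were left out (adjusted p up to 0.0731). The F-box gene Fbxl16 (log2 fold change -0.82, adjusted p = 0.00312) and the co-chaperone Dnajc21 (-0.60, adjusted p = 0.00722) fell too. Dnajc21 had an adjusted p of 0.0588 without Gh replicate 1. Ppp1r1c, a phosphatase inhibitor, was scarce, at 0.589, 0.477, 0.299 and 1.35 CPM against 7.37, 2.09 and 10.9 CPM in Gh (log2 fold change -3.29, adjusted p = 0.0083), and was not called without Gh replicate 1 (0.0563) or 4 (0.15).

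Long noncoding RNAs that stay in the nucleus were lower in 12 of 13 cases in the fit on all TRAP libraries. Of the 13, 4 fell and none rose, beside 0.175% and 0.673% of all genes, with a median log2 fold change of -0.41, beside 0.00. The list's median was -0.28 with replicates 1 and 4 of both groups alone and -0.87 with replicates 2 and 3 alone. Malat1, of nuclear speckles (chr19:5795690-5802672), was at 4259, 4152, 4246 and 4675 CPM in Sh + Flx against 5936, 7739 and 5658 CPM in Gh (log2 fold change -0.57 ± 0.10, adjusted p = 0.00968). Meg3, an imprinted RNA, had 1211, 1035, 1071 and 1247 CPM against 1530, 2061 and 1468 CPM in Gh (log2 fold change -0.56, adjusted p = 0.0258). Miat and Snhg11 were the others (-0.86 and -0.69, adjusted p = 0.0258 and 0.0317). In each, the Gh libraries of replicates 2 and 3 were highest. Such RNAs are not translated, and in Gh the list was lower in TRAP than in input, by a median log2 fold change of -1.27. Of the 13, 9 were called lower there, beside 21.9% of all genes. Reads in no annotated gene made up 30.0% to 35.8% of the counted reads in Sh + Flx and 34.7% to 39.8% in Gh, and the part of carried-over nuclear RNA in these differences was not tested. One of the 4 was called without Sh + Flx replicate 2, without replicate 3 or without Gh replicates 2 and 3, and 2 without Gh replicate 1. In the fit that left out all Sh libraries 1 was called, and none with all TRAP libraries, in edgeR or DESeq2.

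S100a10 itself was not called. It had 49.99, 67.0, 69.8 and 42.6 CPM in Sh + Flx, around the 56.9, 57.2 and 57.8 CPM of Gh (chr3:93555117-93564645, log2 fold change 0.01 ± 0.16, adjusted p = 0.994). None of 12 serotonin receptor genes tested was called, beside 0.848% of all genes. In the fit on all TRAP libraries none of 13 was, with 1 lower and none higher at an unadjusted p under 0.05. Htr2a had 26.9, 18.1, 19.9 and 21.5 CPM in Sh + Flx and 21.2, 14.3 and 23.4 CPM in Gh (log2 fold change 0.15 ± 0.20, adjusted p = 0.87). Htr1a had 12.2, 9.06, 8.63 and 11.3 CPM against 8.28, 13.3 and 13.2 CPM in Gh (-0.18 ± 0.24, adjusted p = 0.862), and Htr4 averaged 1.04 ± 0.52 CPM against 1.33 ± 0.54 CPM in Gh (SD, n = 4 and 3 libraries). Htr7 was the receptor furthest apart of those named here, at 9.42, 12.3, 6.42 and 8.06 CPM against 12.7, 15.4 and 15.96 CPM in Gh (log2 fold change -0.70, adjusted p = 0.254). Anxa2, the binding partner of p11, differed by 0.35 on the log2 scale (adjusted p = 0.426).

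Markers of other cell types were read beside these genes, and beside the 0.673% of all genes that rose and the 0.175% that fell. On the list of meningeal fibroblast markers, Col1a1 (log2 fold change 0.65, adjusted p = 0.0201), Col3a1 (0.88, adjusted p = 0.0173) and Aldh1a2 rose, Igf2 fell, and the median over 23 was 0.18. Their summed level was 4373 to 5582 CPM in Sh + Flx and 4813 to 5411 CPM in Gh, and their mean log2(CPM + 1) was 6.88 to 7.16 and 6.77 to 6.97. Libraries did not overlap in 7 of the 23, against 10.4% of all genes, and 6 of the 7 were higher in Sh + Flx, against 5.38% of all genes. Of the defining members, Dcn had 213, 230, 255 and 251 CPM against 168, 152 and 189 CPM in Gh and Islr 127, 134, 158 and 119 CPM against 99.9, 69.8 and 105 CPM in Gh, higher without overlap but not passing (adjusted p = 0.05001 and 0.0801). Foxc1, at 294, 364, 363 and 411 CPM against 340.2, 278 and 285 CPM in Gh, overlapped. None of the 23 was at 0. Col1a1 was not called without Gh replicate 1, 4 or 2 and 3 (adjusted p up to 0.145), nor Col3a1 without Gh replicate 1 or 4 (up to 0.123). Many genes named above were also strongly enriched in Gh TRAP over input: log2 fold changes were 5.04 for Spp1, 4.64 for Thbd, 4.06 for Serpinf1, 5.80 for Cd74, 4.48 for Bche and 4.11 for Igf2. The part of meningeal cells in the differences was not tested. None of 12 mural, 15 microglial, 16 astrocyte, 19 interneuron or 7 ependymal markers was called, and in the fit on all TRAP libraries 0, 0, 2, 2 and 0 of these were higher and 1, 2, 0, 0 and 1 lower at an unadjusted p under 0.05. One of 16 endothelial markers, Itm2a, rose (0.73, adjusted p = 0.00396), as did 1 of 16 oligodendrocyte markers, Aspa (0.56, adjusted p = 0.0453), which passed in 1 of 9 fits that left out libraries. Of 9 markers of layer 5 intratelencephalic neurons, Sulf1, a sulfatase of heparan sulfate, rose (0.78, adjusted p = 0.0185) and Rspo1, an enhancer of Wnt signaling, fell (-1.18, adjusted p = 0.0218). Sulf1 was not called without Gh replicate 4 (0.0998) or without Gh replicates 2 and 3 (0.154), and Rspo1 not without Gh replicate 1 or 4 or Sh + Flx replicate 1 or 2 (adjusted p up to 0.167). Rspo1 was also the 1 call among 11 markers of upper layer and layer 4 neurons. Of these 11, 9 had negative log2 fold changes with all TRAP libraries (median -0.28), and 3 were lower without overlap, beside 5.04% of all genes. In input 4 of the 11 were called lower, beside 2.21% of all genes, and none higher. Etv1 was not called, at 212, 172, 182 and 266 CPM against 211, 215 and 200 CPM in Gh.

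The same groups were also compared in whole-cortex input, where 833 of 15690 genes were called (5.31%), 486 higher in Sh + Flx (3.1%) and 347 lower (2.21%). The count was 482 without Sh + Flx input replicate 1 and 524 without replicate 4. Of the 103 genes that rose in TRAP and were tested in input, 23 were called higher there and 3 lower. Of 27 that fell, 14 were called lower and none higher. The 37 genes shared in direction were 27.2% of the TRAP calls and 4.44% of the input calls. Nptx2 was the clearest shared gene, at 35.1, 35.5, 39.3 and 31.9 CPM in Sh + Flx input against 11.4, 8.59, 10.03 and 16.5 CPM in Gh input (log2 fold change 1.61 ± 0.13, adjusted p = 5.29e-09). Wfs1 (1.05), Inhba (0.91), Rgs2 (0.76) and Fosb (1.31) rose in input too, and Camk2n1 (-0.42) and Igf2 (-0.63) fell. On the effector list 13 of 44 genes rose in input and 1 fell. Fosb in Sh + Flx input was at 40.8, 26.1, 22.0 and 42.6 CPM, with replicates 1 and 4 again the high pair, against 12.8, 15.1, 12.9 and 11.98 CPM in Gh input. Bdnf rose in input (0.94, adjusted p = 9.85e-07) but not in TRAP (0.60, adjusted p = 0.288).

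Whether the change differed between the fractions was tested as an interaction, in fits that take TRAP and input libraries as independent. The labels do not say whether both came from the same mice. With all libraries of both fractions 9 of 17015 genes passed (0.0529%), all with a more positive change in TRAP, and 46 passed with the 4 groups alone (0.28%, with 0.219% higher in TRAP and 0.0609% lower). None passed without Gh TRAP replicate 1, 4 or 2 and 3, without Gh input replicate 2 or 3, or without any one Sh + Flx input library, and 2 or 1 without Sh + Flx TRAP replicate 1 or 4, 1 without Gh input replicate 1 and 5 without Gh input replicate 4. Of the 108 genes that rose in TRAP, 8 were among the 9. The interaction uses the TRAP libraries that gave the 108, so this overlap is not further evidence. Sdpr had an interaction of 1.57 ± 0.31 and Emd of 1.33 ± 0.27 on the log2 scale (adjusted p = 0.0421 each). In input their log2 fold changes were -0.07 and -0.04. Eprs had 0.64, Nr4a3 2.71, Adamts1 1.75, Cab39l 1.22 and Aqp1 4.04 (adjusted p = 0.0421 each). Aqp1, a water channel, was at 7.78, 3.08, 2.67 and 9.43 CPM in Sh + Flx TRAP against 0.101, 1.02 and 0.489 CPM in Gh TRAP, and at 0.213 CPM or less in Sh + Flx input and 0.273 CPM or less in Gh input. It was the 1 call among 13 choroid plexus markers in TRAP, beside 0.673% of all genes that rose. Of the 13, 9 had negative log2 fold changes in the fit on all TRAP libraries. In input 2 of 12 such markers were called lower, beside 2.21% of all genes, and none higher (median -0.82). The part of choroid plexus cells was not tested. With the 4 groups alone, Cstb also passed (1.62, adjusted p = 0.00267), as did Tpm4 (0.91), S100a6 (1.22) and Nnat (0.74), whereas Stra6 did not (0.53, adjusted p = 0.359).

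**Figure D5:**
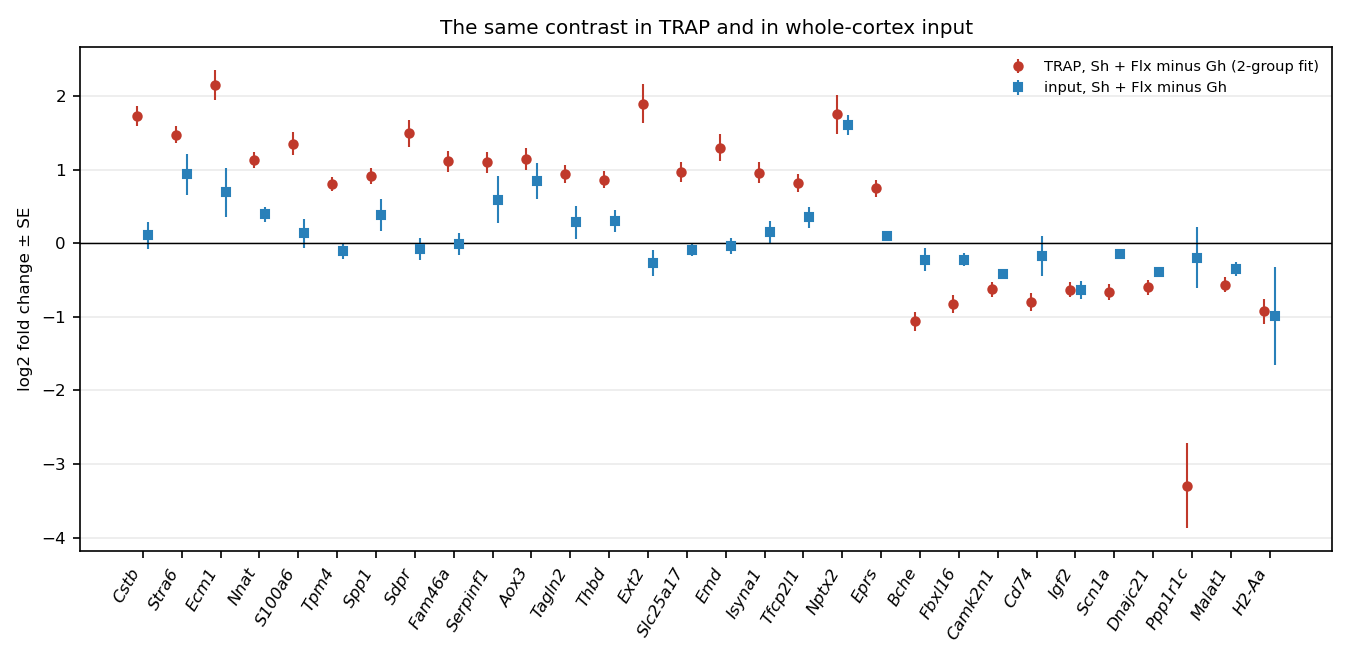
Log2 fold change ± SE of Sh + Flx minus Gh in TRAP (red circles, fit on both groups alone) and in whole-cortex input (squares) for the 20 leading genes that rose and the 10 that fell. Nptx2 and Igf2 moved alike in both fractions, whereas Cstb, Sdpr and Emd were near 0 in input.

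Set against single-housed mice on vehicle, 107 or 108 of the 108 genes had a positive sign in Sh + Flx, depending on the Sh libraries used. This comparison shares the Sh + Flx libraries with the one above, so its values are given side by side and not as further evidence. In the fit on all TRAP libraries, 1083 of 16754 genes were called between Sh + Flx and Sh (6.46%), and 353 without Sh replicates 2 and 3 (2.08%). In the comparison of Sh + Flx against Sh, TRAP, leaving out 1 library moved the count to 278 to 2418 for Sh replicates and 179 to 481 for Sh + Flx replicates. Of the 108 genes that rose against Gh, 72 were called higher against Sh as well (2.65% of all genes), and 49 without Sh replicates 2 and 3 (1.16%). Of the 28 that fell, 13 were called lower (3.81%), and 7 without Sh replicates 2 and 3 (0.912%). Cstb in the Sh libraries was at 46.4, 23.2, 10.7 and 43.0 CPM, at or below the Gh level. Ecm1 was at 8.82, 4.31, 4.14 and 8.32 CPM, with replicates 1 and 4 above Gh. Sh replicates 1 and 4 also lay above Gh for Nnat (339 and 323 CPM), Thbd (296 and 293 CPM) and Serpinf1 (45.5 and 42.8 CPM). In Spp1 they had 214 and 218 CPM, inside the Sh + Flx range of 216 to 258 CPM or just under it. Of the 108 genes, 87 were positive in Sh against Gh without Sh replicates 2 and 3 (median log2 fold change 0.26). With all Sh libraries 44 were (median -0.08). Between Sh and Gh edgeR called no gene (2634 at an unadjusted p under 0.05, and 6 called without Sh replicates 2 and 3, 0.0353% of genes tested, with 0.0176% higher and 0.0176% lower). Since Sh replicates 1 and 4 are nearly identical to each other, p-values that rest on them are too small.

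In fluoxetine-treated mice classified as anxious, the genes that rose or fell above had the same sign against Gh. Between Sh + Flx anxious and Sh + Flx, edgeR called no gene (724 at an unadjusted p under 0.05, and 9 called by DESeq2), which does not show that the groups are alike. Against Gh, all 108 genes that rose and all 28 that fell in Sh + Flx had the same sign in Sh + Flx anxious, with 10 and 0 called in the fit on all TRAP libraries (0.0716% of all genes higher, 0 lower) and 62 and 16 in the fit without Sh (0.902% and 0.491%, 1.39% in all). Both comparisons share the Gh libraries. Stra6 had 241, 241, 283 and 174 CPM and Ecm1 21.4, 25.3, 34.0 and 19.1 CPM in Sh + Flx anxious, levels that reach or exceed those of Sh + Flx. Nr4a3 was lower there, at 13.7, 7.37, 7.15 and 18.4 CPM (Sh + Flx anxious minus Sh + Flx, log2 fold change -2.06, adjusted p = 0.628), as was Nr4a2, at 68.6, 56.1, 65.6 and 78.4 CPM. In both anxious and normal Sh + Flx mice, replicates 1 and 4 had more Fosb than replicates 2 and 3, at 25.7 and 28.0 CPM against 7.96 and 7.01 CPM in the anxious group.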

How the data were processed

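Reads in the deposited tables were counted per gene by the authors from paired 75-base NextSeq 500 reads of libraries made with the Ovation RNA-Seq V2 kit. The values are raw, unnormalized counts for 24062 genes in 32 libraries. The submitters' processing notes name TopHat2 2.0.11, Cufflinks 2.2.1, edgeR 3.8.6, DESeq2 and mm10. The sources used here do not name the program that counted the reads or its use of strand, so overlapping and antisense genes cannot be told apart. The 5 lines that name no gene were left out. Further deposited tables of group-mean FPKM with the authors' own fold changes and p-values were not used.

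Genes passing filterByExpr were scaled by TMM and tested with the quasi-likelihood test of edgeR 4.0.16 in R 4.3.3 (limma 3.58.1), with Benjamini-Hochberg adjustment and a threshold of 0.05. DESeq2 1.42.0 was an alternative, as were RLE factors, no filter, a replicate block, other sets of libraries and leaving out each library. Scripts were tested on simulated counts, and figures were drawn with matplotlib 3.10.9 in Python 3.11.15. Levels are TMM-scaled CPM. Gh TRAP replicates 2 and 3 were summed. Libraries sharing a replicate number did not deviate together, so the numbers were not taken as pairs. Each library pools 3 mice, and nothing says that libraries of one group come from separate mice, so p-values measure the spread between these libraries. Total counts per library, 9776244 to 64788703 in the compared groups, limit the precision of scarce genes.

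Genes were named by rule: S100a10, Htr2a, Htr1a and Htr4, and, among called genes whose libraries did not overlap and passing over predicted models, the 20 of smallest p that rose and 10 that fell, with up to 4 members of smallest p from each list. Fos, Arc, Egr1, Anxa2, Cyp26b1, Adamts1, Gem, Cab39l, Akr1b10, Meg3, Snhg11, Foxc1, Dcn, Islr, Deptor, Ttr and Etv1 were added after their values were seen. One gene counted in a list is not reported here. Gene lists and members were chosen with earlier results of these data known. Positions and promoters are from RefSeq (GRCm38.p6).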

Additional observations from a re-analysis of the deposited data

Results flagged for a closer look

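In 9 genes the change between Sh + Flx and Gh differed between TRAP and input at an adjusted p under 0.05, by the interaction test of edgeR over all libraries of both fractions, and 8 of them are described here. The change in TRAP minus the change in input was 1.57 for Sdpr, 1.33 for Emd, 0.64 for Eprs, 4.04 for Aqp1, 2.71 for Nr4a3, 1.75 for Adamts1, 1.22 for Cab39l and 1.04 for Akr1b10, an aldo-keto reductase, on the log2 scale. Each had an adjusted p of 0.0421 and lost its call in the fits named with the interaction above. Akr1b10 was not called in TRAP alone (log2 fold change 0.67, adjusted p = 0.122).

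Single libraries stood far from the other 3 of their group in 7 of 243 groups checked over 81 genes (2.88%, where chance flags about 1 in 20), none of them in Sh + Flx TRAP. In Sh + Flx input, Htr1a was high in replicate 1 at 21.5 CPM, Sdpr was high in replicate 3 at 8.90 CPM, and Inhba at 58.3 CPM and Gem at 1.65 CPM were low in replicate 2. In Gh input, S100a6 was low in replicate 1 at 4.15 CPM, and Cd74 at 1.48 CPM and Aldh1a2 at 7.57 CPM were low in replicate 4. The causes were not tested.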

How the results depend on the processing

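The number of genes called between Sh + Flx and Gh in TRAP, 1 with all TRAP libraries, was 3 with no filter on low counts, 84 with DESeq2, 24 with Gh replicates 2 and 3 kept separate, 195 without Sh replicates 2 and 3, 136 with both groups alone, 151 without any Sh library, 28 without Sh replicate 3, and 0 to 5 with 1 library left out. The 136 calls became 214 with no filter, 383 with DESeq2, 364 with Gh replicates 2 and 3 separate, and 52 to 154 with 1 library left out. With a replicate block the 1 call became 14 (numbers 1 to 4) or 12 (numbers 1 and 4 against 2 and 3) and the 136 became 240 or 242, although the numbers do not pair the samples.

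For Sh + Flx against Sh, TRAP, the 1083 calls became 2400 with DESeq2, 353 without Sh replicates 2 and 3, and 179 to 2418 with 1 library left out. Between Sh + Flx anxious and Sh + Flx the count of 0 became 9 with DESeq2. The 833 input calls ran from 482 to 818 with 1 library left out. The 9 interaction calls became 28 with DESeq2, 5 with the replicate block of 1 and 4 against 2 and 3, 107 without Sh replicates 2 and 3, 46 with the 4 groups alone, and 0 to 13 with 1 library left out. The fits without all Sh libraries, without Sh replicate 3 alone, without Gh replicates 2 and 3 and on the 4 groups alone were chosen after seeing the data, as were all alternatives of the fit on both groups alone.

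None of the 136 called genes had the opposite sign in the settings of either fit, although 1 was not tested in some of them. These settings share the libraries that gave the calls, so the signs could hardly change. With either replicate block Cyp26b1 (adjusted p = 0.0331 and 0.00938) and Ttr (0.00558 and 0.00632) of the retinoid list and Egr1 (0.0245 and 0.014) were called lower, where the fit on both groups alone without a block called none of them. The named genes that changed sign in these fits were S100a10, Htr2a, Htr4 and Fos, none of them called. With replicates 1 and 4 of both groups alone, compared without a test, the called gene Gem had a log2 fold change of 5.25. With replicates 2 and 3 alone it had -0.15. Among genes not called, Htr1a (0.16 and -0.57), S100a10 (-0.31 and 0.25) and Fos (0.26 and -0.71) also differed in sign between these pairs. The log2 fold change of S100a10 was -0.0041 without Sh replicates 2 and 3 and ran from -0.11 to 0.13 with 1 library left out. Those of Htr2a ran from -0.049 to 0.29 (lowest without Gh replicates 2 and 3), of Htr4 from -0.68 to 0.035 (highest without Gh replicates 2 and 3) and of Fos from -0.50 to 0.040 without Sh + Flx replicate 2 (0.0147 without Sh + Flx replicate 3). Of the named genes' values 1372 stayed the same, 276 became stronger, 3 weaker, and 9 changed sign in a fit. Another 41, all with replicates 1 and 4 or 2 and 3 alone, moved by more than the SE of the log2 fold change with all TRAP libraries. Changes of sign with these pairs are counted among the 41 or, within that SE, among the 1372. Stronger and weaker mean that a call at an adjusted p of 0.05 was gained or lost against the fit on all TRAP libraries. That fit called only Ecm1, so no other named gene could become weaker. For the others, staying the same in a fit means that they were still not called. The causes were not tested. Values of genes near 1 CPM rest on few counts.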
